A study of Mus musculus with 2 samples.

Results

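The chemokine ligand family was followed in RNA-seq libraries of CD11b+, Ly6G-, Ly6C-low cells sorted from mouse spleen on day 3 after intravenous infection with 100000 Listeria monocytogenes. The members are the genes whose symbol in the count table is Ccl or Cxcl with a number and at most 1 further letter, together with Xcl1, Cx3cl1, Pf4 and Ppbp. This gives 39 genes of the 30538 in the table, and 1 further Ccl gene is left out by the rule. The series has 2 libraries, from about 100000 sorted cells each. The first is from infected Ch25h-/- mice, which lack the gene of the enzyme that makes 25-hydroxycholesterol, and the other from infected C57BL/6 mice, the wild type. No uninfected group is part of the series, and the labels give neither the age of the mice nor whether cells of several mice were pooled.

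Chemokines are small proteins that guide leukocyte movement by binding G protein-coupled receptors on the cells they attract. They are classed by the spacing of their first cysteines into CC, CXC, C and CX3C types. In a bacterial infection, macrophages, dendritic cells and NK cells release them: CXCR2 ligands draw neutrophils, CCR2 ligands draw monocytes out of the bone marrow, and CXCR3 ligands act on NK cells and T cells. Another set of ligands is made by stromal cells at rest and holds lymphocytes in their zones of the spleen.

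The Ch25h-/- library held 15986392 gene counts and the C57BL/6 library 16957371. With 1 library per genotype nothing measures the variation between mice, so no p-value is given. Ratios are Ch25h-/- over C57BL/6 with exact 95% intervals, which cover counting error only. Ch25h itself was seen 0 times in the Ch25h-/- library and 3 times in the C57BL/6 library. Neither exceeds the floor of 3 counts that stands for a count of 0, so this gene could not check the genotype labels. Of the markers of red pulp macrophages, the resident macrophages of the spleen, all 9 had counts and summed to 173 CPM (reads relative to library size, scaled by TMM factors) in the Ch25h-/- library and 297 CPM in the C57BL/6 library. The 10 NK cell markers summed to 18382 CPM in the Ch25h-/- library and 11399 CPM in the C57BL/6 library, so NK cell markers drew many more reads than red pulp macrophage markers in both. Most of this came from the granule genes Gzmb (7429 CPM in the Ch25h-/- library and 4356 CPM in the C57BL/6 library), Gzma (5274 and 3518 CPM) and Prf1 (2897 and 1974 CPM). Ncr1 had 429 and 156 CPM. The sums do not give cell numbers.

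The genes of the CXCR2 ligands Cxcl1, Cxcl2 and Cxcl3 were all lower in the Ch25h-/- library by more than 2-fold, and their promoters share a motif. These promoters are shown first, beside that of Cxcl10, a CXCR3 ligand gene that was not lower. The windows run from 250 bases before to 50 bases after the transcription start in RefSeq (GRCm38.p6), 5′ to 3′ on the strand of the gene. Capitals mark matches to the kappaB motif, the site bound by NF-kB proteins. This motif was searched as GGG, A or G, any base, A or T, 2 bases that are each C or T, and CC. In Cxcl10 capitals also mark the interferon-stimulated response element, searched as GAAA, any 2 bases and GAAA.
Cxcl1, chr5:90890995-90891294, plus strand: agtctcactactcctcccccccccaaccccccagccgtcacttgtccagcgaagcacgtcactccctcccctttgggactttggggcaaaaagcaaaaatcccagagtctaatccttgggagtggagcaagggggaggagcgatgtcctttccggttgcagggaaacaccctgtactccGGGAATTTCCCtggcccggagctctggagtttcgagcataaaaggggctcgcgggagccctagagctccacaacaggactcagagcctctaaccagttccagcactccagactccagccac
Cxcl2, chr5:90903649-90903948, plus strand: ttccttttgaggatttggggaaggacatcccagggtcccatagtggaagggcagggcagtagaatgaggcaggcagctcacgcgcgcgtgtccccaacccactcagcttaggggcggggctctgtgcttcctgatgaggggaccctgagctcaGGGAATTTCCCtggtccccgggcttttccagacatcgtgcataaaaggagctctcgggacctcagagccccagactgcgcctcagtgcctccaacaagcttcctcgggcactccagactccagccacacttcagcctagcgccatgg
Cxcl3, chr5:90785851-90786150, plus strand: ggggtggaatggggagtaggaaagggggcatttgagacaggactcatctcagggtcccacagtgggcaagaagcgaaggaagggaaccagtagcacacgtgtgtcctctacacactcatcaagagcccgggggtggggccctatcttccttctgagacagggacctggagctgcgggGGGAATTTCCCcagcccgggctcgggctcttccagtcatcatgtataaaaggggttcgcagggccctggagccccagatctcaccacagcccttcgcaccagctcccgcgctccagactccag
Cxcl10, chr5:92348840-92349139, minus strand: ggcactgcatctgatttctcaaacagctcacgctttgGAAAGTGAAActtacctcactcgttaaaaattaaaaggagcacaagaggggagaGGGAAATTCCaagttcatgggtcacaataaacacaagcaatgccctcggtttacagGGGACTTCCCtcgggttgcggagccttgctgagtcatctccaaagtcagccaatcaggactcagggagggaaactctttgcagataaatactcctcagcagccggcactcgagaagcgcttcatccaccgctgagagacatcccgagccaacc

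The same kappaB letters, GGGAATTTCC, begin 71 bases before the start of Cxcl1, 97 bases before that of Cxcl2 and 73 bases before that of Cxcl3. Each is overlapped, 1 base further on, by a match on the other strand. Cxcl10 holds kappaB matches at 159 and 103 bases before its start and the interferon element at 213 bases. Of all 32851 RefSeq windows of this length, 4.51% hold a kappaB match on either strand and 3.44% the interferon element. Of the 20 measured ligand genes, 14 have a window in the table, and 6 of these hold a kappaB match: Cxcl1, Cxcl2, Cxcl3, Cxcl10, Ccl9 and Ccl27a. Of the 6 called lower that have a window 3 hold it, and of the 8 not called lower 3 do. The 3 lower genes are Cxcl1, Cxcl2 and Cxcl3, which lie near each other on chromosome 5 and may not be separate instances. The interferon element was held by 0 of the 6 and by 1 of the 8, Cxcl10. Of the measured genes, Cxcl9, Cxcl10, Ccl9 and Ccl27a hold the AP-1 motif TGANTCA (either strand), as do 7.81% of all windows. That is 0 of the 6 called lower and 4 of the 8 not called lower. A gene with several windows counts as holding a motif when any of them does. These are matches of letters and not measured binding, and their part in the ratios was not tested.

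**Figure D1:**
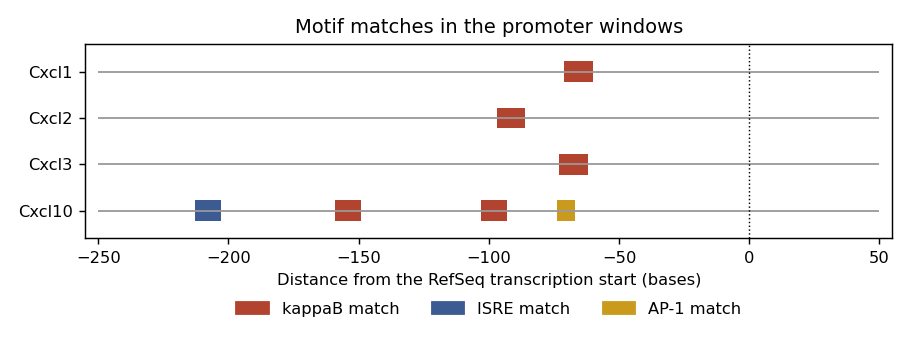
Motif matches (coloured boxes) in the promoter windows of Cxcl1, Cxcl2, Cxcl3 and Cxcl10, by distance in bases from the RefSeq transcription start at 0. The kappaB match starts 71, 97 and 73 bases before the start in Cxcl1, Cxcl2 and Cxcl3, and Cxcl10 holds 2 kappaB matches, 1 interferon element (ISRE) and 1 AP-1 match.

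The family as a whole took 0.183% of counts in the Ch25h-/- library (exact interval 0.181 to 0.185%) and 0.173% in the C57BL/6 library (0.171 to 0.175%). Its makeup differed more than its total. Genes with at least 1 CPM on average count as measured, which 20 of the 39 members did, and genes that differ at least 2-fold with an interval clear of a ratio of 1 are called. Of the 20, 9 were lower in the Ch25h-/- library, against 5.77% of all 11972 measured genes, and 1 was higher, against 2.07%. In either direction 10 of 20 were called, against 7.84%. The median log2 ratio of the measured members was -0.52, beside 0.01 over all measured genes, with 12 below 0 and 8 above. Genes near the filter have wide intervals: with a mean of at least 5 CPM, 5 of 13 members were lower, against 3.44% of the genes at that level. The lower members were Cxcl1, Cxcl2, Cxcl3, Ccl2, Ccl24, Ccl17, Cxcl16, Cx3cl1 and Ccl6. Of these, Cxcl1, Ccl24 and Ccl17 were under 1 CPM in the Ch25h-/- library and passed the filter only through the C57BL/6 library. At 5 CPM, Cxcl3 and Ccl2 likewise passed only through the C57BL/6 library. A filter on the mean of both libraries admits such genes, and the shares over all genes used the same filter. The CXCR3 ligands, and Ccl3, Ccl4 and Ccl5, which hold most of the counts, were not called. In a sorted population, fewer cells of a type and less RNA per cell give the same difference and cannot be told apart here.

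**Figure D2:**
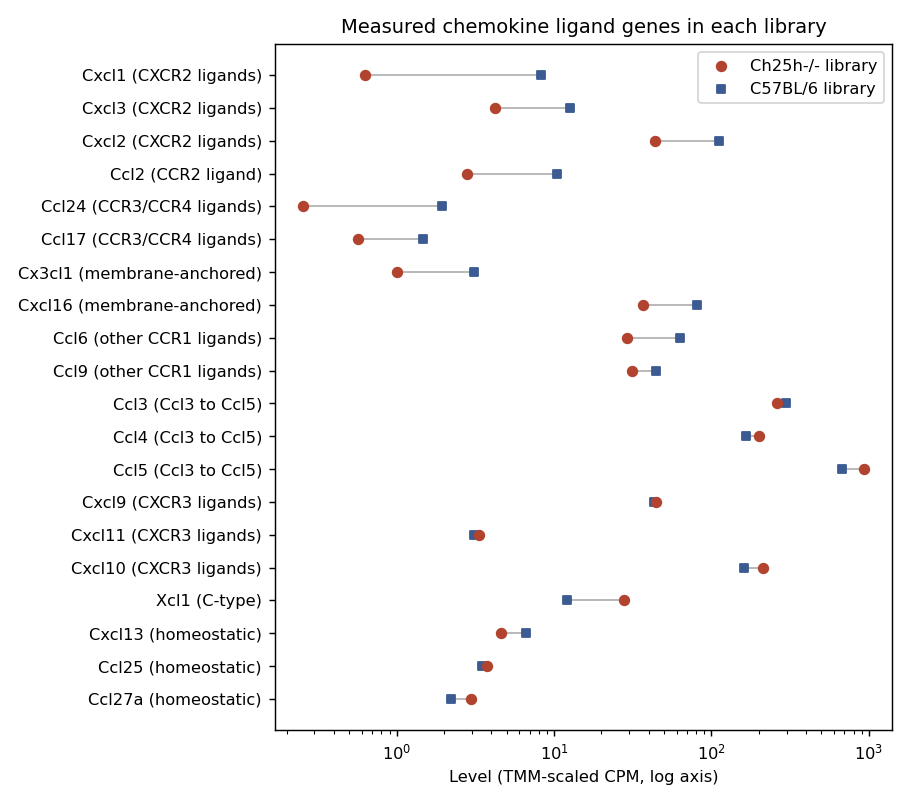
Level of each measured chemokine ligand gene in CPM (log axis), 1 point per library, grouped by role. The points of the Ch25h-/- library lie left of those of the C57BL/6 library for all genes called lower. These are Cxcl1, Cxcl2, Cxcl3, Ccl2, Ccl24, Ccl17, Cxcl16, Cx3cl1 and Ccl6. For Xcl1 the point of the Ch25h-/- library lies right. The points of both libraries lie close together for the CXCR3 ligands and for Ccl3 to Ccl5.

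Cxcl1, Cxcl2 and Cxcl3 encode CXC chemokines with the ELR motif, which bind CXCR2 and draw neutrophils. Cxcl1 (ENSMUSG00000029380, GRCm38 chromosome 5, 90891241 to 90893115) had 10 counts (0.631 CPM) in the Ch25h-/- library and 141 counts (8.24 CPM) in the C57BL/6 library. That is 13.1-fold lower, the steepest difference among the measured ligands (log2 ratio -3.71, interval -4.80 to -2.79). Cxcl2 had 692 counts (43.7 CPM) in the Ch25h-/- library and 1918 counts (112 CPM) in the C57BL/6 library, 2.57-fold lower (log2 ratio -1.36, interval -1.49 to -1.23). Cxcl3 had 67 counts (4.23 CPM) in the Ch25h-/- library and 215 counts (12.6 CPM) in the C57BL/6 library, 2.97-fold lower (log2 ratio -1.57, interval -1.99 to -1.17). The interval of Cxcl1 lies wholly below those of Cxcl2 and Cxcl3, which overlap each other. Per kilobase of annotated exon, the level of Cxcl2 was 62.7 times that of Cxcl1 in the Ch25h-/- library and 12.3 times in the C57BL/6 library. Its level was 17.5 times that of Cxcl3 in the Ch25h-/- library and 15.1 times in the C57BL/6 library, a smaller shift. The value of 62.7 rests on 10 counts of Cxcl1, with an exact counting interval of 4.80 to 18.4 counts. Cxcl2 shares 5.84% of its 50-base stretches with Cxcl3, and Cxcl3 shares 4.24% with Cxcl2 and further genes.

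The CXCR2 ligands as a group took 2.65% of the family's counts in the Ch25h-/- library (interval 2.47 to 2.84%) and 7.77% in the C57BL/6 library (7.47 to 8.09%). The other 3 genes of this group were not measured. Ppbp, a platelet chemokine gene, had 7 counts in the Ch25h-/- library and 1 in the C57BL/6 library, with an interval of the log2 ratio from -0.04 to 8.41. Cxcl5 and Cxcl15 had 0 counts in both, and the placing of Cxcl15 in this group was not checked here. The receptor gene Cxcr2 had 40.1 CPM in the Ch25h-/- library and 21.04 CPM in the C57BL/6 library. Its log2 ratio of 0.93 went in the other direction from Cxcl1, Cxcl2 and Cxcl3. Of the 11 neutrophil markers, with Cxcr2 and Ly6g among them, all had counts, and they summed to 2185 CPM in the Ch25h-/- library and 1260 CPM in the C57BL/6 library.

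The CCR2 ligands attract monocytes. Ccl2 (ENSMUSG00000035385, chromosome 11, 82035571 to 82037453) had 44 counts (2.78 CPM) in the Ch25h-/- library and 179 counts (10.5 CPM) in the C57BL/6 library. It was 3.77-fold lower (log2 ratio -1.91, interval -2.42 to -1.43). Its neighbour Ccl7 lay under the filter, with 1 count in the Ch25h-/- library and 20 counts in the C57BL/6 library, a log2 ratio of -4.21 whose interval runs from -9.58 to -1.57. Ccl12, a rodent gene close to Ccl2 in sequence, had 8 counts in the Ch25h-/- library and 6 in the C57BL/6 library. Ccl8, listed in this group though its receptor in the mouse was not checked here, had 0 counts in the Ch25h-/- library and 1 in the C57BL/6 library. Only Ccl2 of the group could thus be measured. The receptor gene Ccr2 was called higher, at 691 CPM in the Ch25h-/- library and 304 CPM in the C57BL/6 library (log2 ratio 1.19). Ccr2 is also 1 of 6 Ly6C-high monocyte markers, which all had counts and summed to 2220 CPM in the Ch25h-/- library and 1564 CPM in the C57BL/6 library.

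Ccl24 and Ccl17, ligands of CCR3 on eosinophils and of CCR4 on T cells, were lower at low levels. Ccl24 had 4 counts (0.252 CPM) in the Ch25h-/- library and 33 counts (1.93 CPM) in the C57BL/6 library, a log2 ratio of -2.93 with an interval of -4.89 to -1.44. Ccl17, a product of dendritic cells, had 9 counts (0.568 CPM) in the Ch25h-/- library and 25 counts (1.46 CPM) in the C57BL/6 library, a log2 ratio of -1.36 with an interval of -2.65 to -0.22. Both genes therefore rest on few reads. Ccl1, Ccl11 and Ccl26 had 0 counts in both libraries. The eosinophil markers, 5 of 5 with counts, summed to 9.34 CPM in the Ch25h-/- library and 26.8 CPM in the C57BL/6 library. Of these, Epx (log2 ratio -3.78) and Prg2 (-3.67) were lower. The other 3 were not called: Il5ra (-0.91), Siglecf (-0.08) and Ccr3 (0.18), the receptor gene of Ccl24. The part of eosinophils in the values of Ccl24 was not tested.

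The membrane-anchored ligands Cxcl16 and Cx3cl1, which act as adhesion molecules until they are shed, were both lower. Cxcl16, the ligand of CXCR6 and also a scavenger receptor for oxidised lipoprotein (ENSMUSG00000018920, chromosome 11, 70453983 to 70459984), had 584 counts (36.9 CPM) in the Ch25h-/- library and 1391 counts (81.3 CPM) in the C57BL/6 library. It was 2.21-fold lower, with a log2 ratio of -1.14 (interval -1.28 to -1.0). An exon of Zmynd15 overlaps Cxcl16 on the opposite strand, and the use of strand in counting is not given in the sources used here. Cx3cl1, or fractalkine, had 16 counts (1.01 CPM) in the Ch25h-/- library and 53 counts (3.10 CPM) in the C57BL/6 library, a log2 ratio of -1.62 (interval -2.52 to -0.79). Their receptor genes stood on the other side of 0. Cxcr6 was called higher, at 10.5 CPM in the Ch25h-/- library and 3.10 CPM in the C57BL/6 library (log2 ratio 1.76), and Cx3cr1 had 49.2 CPM in the Ch25h-/- library and 31.9 CPM in the C57BL/6 library (0.62). The shedding enzyme genes Adam10 (0.38) and Adam17 (-0.01) were not called.

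Ccl6 and Ccl9 are CCR1 ligands of rodents that myeloid cells make. Ccl6 had 458 counts (28.9 CPM) in the Ch25h-/- library and 1081 counts (63.2 CPM) in the C57BL/6 library, 2.19-fold lower (log2 ratio -1.13, interval -1.29 to -0.97). Ccl9 had 492 counts (31.1 CPM) in the Ch25h-/- library and 761 counts (44.5 CPM) in the C57BL/6 library, a log2 ratio of -0.52 (interval -0.68 to -0.35) that did not reach 2-fold. Together they took 3.24% of family counts in the Ch25h-/- library (interval 3.04 to 3.45%) and 6.29% in the C57BL/6 library (6.02 to 6.58%). Their receptor gene Ccr1 was at 45.3 CPM in the Ch25h-/- library and 49.8 CPM in the C57BL/6 library (log2 ratio -0.14).

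Ccl3, Ccl4 and Ccl5, CC chemokines that attract T cells, NK cells and monocytes, are made by NK cells, T cells and activated macrophages. Per kilobase of exon they were the most abundant ligands in both libraries, and none was called. Ccl5 (ENSMUSG00000035042, chromosome 11, 83525778 to 83530518) had 14838 counts (937 CPM) in the Ch25h-/- library and 11480 counts (671 CPM) in the C57BL/6 library, 1.40-fold higher (log2 ratio 0.48, interval 0.45 to 0.52). Ccl4 had 3189 counts (201 CPM) in the Ch25h-/- library and 2854 counts (167 CPM) in the C57BL/6 library (log2 ratio 0.27, interval 0.20 to 0.34). Ccl3 had 4129 counts (261 CPM) in the Ch25h-/- library and 5116 counts (299 CPM) in the C57BL/6 library (log2 ratio -0.20, interval -0.26 to -0.14). The neighbours Ccl3 and Ccl4 thus stood on opposite sides of 0, and their intervals do not overlap. Per kilobase of exon, the level of Ccl3 was 1.12 times that of Ccl4 in the Ch25h-/- library and 1.54 times in the C57BL/6 library. The 3 genes took 75.7% of family counts in the Ch25h-/- library (interval 75.2 to 76.1%) and 66.5% in the C57BL/6 library (65.9 to 67.0%).

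Xcl1, or lymphotactin, was the 1 ligand gene called higher. It encodes the C-type chemokine that NK cells and CD8 T cells release and that attracts XCR1+ dendritic cells. Xcl1 (ENSMUSG00000026573, chromosome 1, 164931644 to 164935527) had 439 counts (27.7 CPM) in the Ch25h-/- library and 206 counts (12.0 CPM) in the C57BL/6 library, 2.30-fold higher (log2 ratio 1.20, interval 0.96 to 1.45). An exon of Gm20743 overlaps it on the opposite strand. Its receptor gene Xcr1 had 6 counts in the Ch25h-/- library and 0 in the C57BL/6 library. All 10 NK cell markers lay above 0, at a median log2 ratio of 0.73, and 3 of them (Ncr1, Klre1 and Klrd1) were called higher. Of the 8 T cell markers none was called, with 4 below 0, 4 above and a median of -0.01. The part of NK cell number in the values of Xcl1, Ccl5 and Ccl4 was not tested.

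The CXCR3 ligands, which interferon-gamma induces, were close to level. Cxcl9 had 708 counts (44.7 CPM) in the Ch25h-/- library and 733 counts (42.8 CPM) in the C57BL/6 library (log2 ratio 0.06, interval -0.09 to 0.21). Cxcl10 had 3344 counts (211 CPM) in the Ch25h-/- library and 2774 counts (162 CPM) in the C57BL/6 library (log2 ratio 0.38, interval 0.31 to 0.45). Cxcl11 had 53 counts in each library, or 3.35 CPM in the Ch25h-/- library and 3.10 CPM in the C57BL/6 library (log2 ratio 0.11, interval -0.47 to 0.69). Exons of Art3 and Gm2673 overlap Cxcl10 and Cxcl11 on the opposite strand. Cxcl9 and Cxcl11 had intervals that include 0, and that of Cxcl10 lies above 0 and below 2-fold. Ifng, the gene of their inducer, had 1540 CPM in the Ch25h-/- library and 1094 CPM in the C57BL/6 library (log2 ratio 0.49). The receptor gene Cxcr3 had 4.99 CPM in the Ch25h-/- library and 3.97 CPM in the C57BL/6 library.

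**Figure D3:**
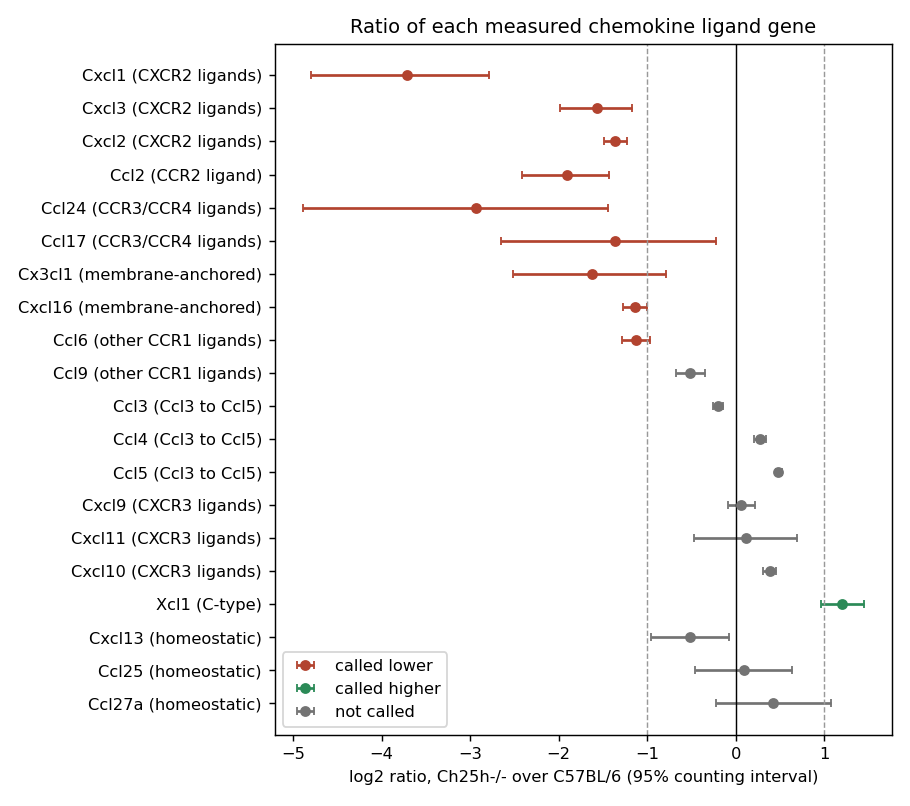
Log2 ratio, Ch25h-/- over C57BL/6, of each measured chemokine ligand gene with its exact 95% counting interval; dashed lines mark 2-fold. The 9 genes called lower range from -3.71 (Cxcl1) to -1.13 (Ccl6), Xcl1 is called higher at 1.20, and the other 10 lie between -0.52 and 0.48.

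Of the 12 ligands of lymphoid tissue and homeostasis, 3 were measured and none was called. Cxcl13, which draws B cells into follicles through CXCR5, had 73 counts (4.61 CPM) in the Ch25h-/- library and 113 counts (6.60 CPM) in the C57BL/6 library (log2 ratio -0.52, interval -0.96 to -0.08). Ccl25, the ligand of CCR9 in thymus and gut, had 59 counts in the Ch25h-/- library and 60 in the C57BL/6 library, and an exon of Elavl1 overlaps it on the opposite strand. Ccl27a had 47 counts in the Ch25h-/- library and 38 in the C57BL/6 library. Its value is uncertain, because 44.98% of its 50-base stretches occur in other genes' transcripts and Il11ra1 overlaps it on the opposite strand. The stromal ligands of the T cell zone were not detected: Ccl19, Ccl21a and Ccl21b had 0 counts in both libraries, as did Ccl20, Ccl27b and Cxcl14. The floor of 3 counts set for a count of 0 equals 0.189 CPM in the Ch25h-/- library and 0.175 CPM in the C57BL/6 library. Ccl19, Ccl21a, Ccl21b and Ccl27b share between 52.0% and 100% of their 50-base stretches with other transcripts, so reads from them could also have been left uncounted. Cxcl12 and Cxcl17 had 2 counts each and Ccl28 had 1 count in the Ch25h-/- library, with 0 in the C57BL/6 library. Of the 9 stromal and endothelial markers, 4 were measured, and all 9 summed to 457 CPM in the Ch25h-/- library and 412 CPM in the C57BL/6 library. Pecam1, which leukocytes also express, had 446 CPM in the Ch25h-/- library and 402 CPM in the C57BL/6 library, and Col1a2 had 115 counts in the Ch25h-/- library and 68 in the C57BL/6 library. Stab2 was lower (log2 ratio -1.44), Pdgfrb stood at -0.20, and Col3a1 had 0 counts in both. Pf4, the other platelet chemokine gene, had 11 counts in the Ch25h-/- library and 17 in the C57BL/6 library. Of the 9 megakaryocyte and platelet markers 3 were measured and none called. The list summed to 340 CPM in the Ch25h-/- library and 372 CPM in the C57BL/6 library, nearly all from Itgb3, an integrin gene that other leukocytes also express, and Gp5 and Gp1ba had 0 counts in both.

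Altogether, 11 members had 0 counts in both libraries and 8 had counts but lay under the filter. The measured member with the lowest mean was Ccl17, at 1.01 CPM, and the highest below the filter was Pf4, at 0.844 CPM.

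Levels of different genes were compared per kilobase of exon. The order of the 4 most abundant ligands was the same in both libraries. In CPM per kilobase, the Ch25h-/- library held 976 of Ccl5, 340 of Ccl3, 305 of Ccl4 and 93.7 of Cxcl10. The C57BL/6 library held 699 of Ccl5, 390 of Ccl3, 253 of Ccl4 and 72.0 of Cxcl10. Below them the order changed. Xcl1 was at position 5 in the Ch25h-/- library with 53.0 CPM per kilobase and at position 8 in the C57BL/6 library with 23.0. Cxcl2 stood just below Xcl1 in the Ch25h-/- library at 21.1 CPM per kilobase, and at position 5 in the C57BL/6 library with 54.2. Cxcl1 was at position 18 of 20 in the Ch25h-/- library and at position 13 in the C57BL/6 library. Of the 19 pairs of neighbours in the order, 8 in the Ch25h-/- library and 10 in the C57BL/6 library had overlapping counting intervals. The first such pair from the top was Ccl6 and Cxcl9 in the Ch25h-/- library, and Cxcl16 and Xcl1 in the C57BL/6 library, so the order above these is clear of counting error.

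Many ligand genes lie in gene clusters. On chromosome 5, the stretch from Cxcl5 to Cxcl2 (90759360 to 90905938, 147 kb) holds 7 members, of which the 3 measured were all lower. The CXCR3 ligand genes lie further along the same chromosome (92321347 to 92365485, 44.1 kb), on the opposite strand, and none of the 3 was called. On chromosome 11, the stretch from Ccl2 to Ccl1 (82035571 to 82305690) holds 6 members, with Ccl2 as the 1 measured. The stretch from Ccl5 to Ccl4 (83525778 to 83664683, 139 kb) holds 5, all measured, with log2 ratios of 0.48 for Ccl5, -0.52 for Ccl9, -1.13 for Ccl6, -0.20 for Ccl3 and 0.27 for Ccl4. In this stretch Ccl6 lies between genes that were not called.

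**Figure D4:**
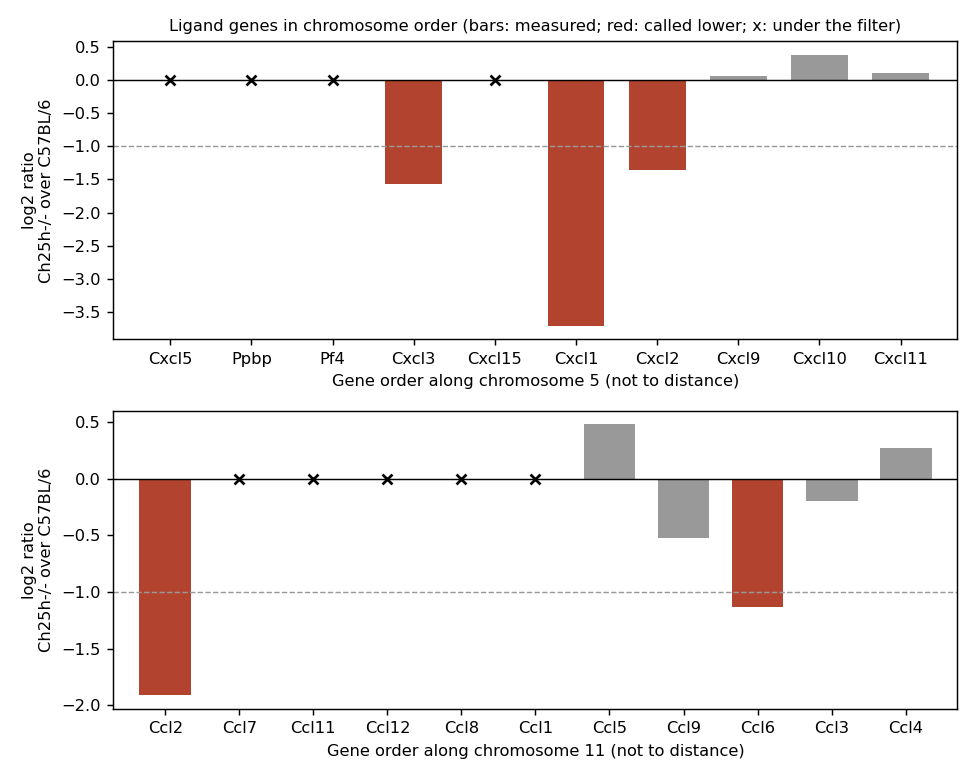
Log2 ratio, Ch25h-/- over C57BL/6, of ligand genes in their order along chromosome 5 (top) and chromosome 11 (bottom); red bars are called lower, grey bars are not called, and crosses mark genes under the filter. Cxcl3, Cxcl1 and Cxcl2 stand at -1.57, -3.71 and -1.36 beside Cxcl9, Cxcl10 and Cxcl11 at 0.06, 0.38 and 0.11.

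The receptors of these ligands showed no common direction. Of 17 chemokine receptor genes, 12 were measured, with 2 lower (Ccr7 and Ccr6), 2 higher (Cxcr6 and Ccr2) and a median log2 ratio of 0.25. Ccr7, the receptor by which mature dendritic cells follow Ccl19 and Ccl21, had 109 CPM in the Ch25h-/- library and 413 CPM in the C57BL/6 library (-1.93). Ccr6, the receptor of Ccl20, had 8.84 CPM in the Ch25h-/- library and 22.6 CPM in the C57BL/6 library (-1.36). B cells also express Ccr6, and the 6 B cell markers, of which none was called, summed to 749 CPM in the Ch25h-/- library and 1182 CPM in the C57BL/6 library. Of 5 atypical receptors and scavengers, the 1 measured gene was Ccrl2, which presents chemerin and does not signal. It was lower, at 63.8 CPM in the Ch25h-/- library and 149 CPM in the C57BL/6 library (-1.22).

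Downstream of the receptors, none of 19 signalling and desensitisation genes was called, and their median was 0.05. The widest values were those of Rgs2 (-0.87) and Rgs1 (-0.67), which shorten G protein signalling, and Rgs16 (0.47). Rac2, a GTPase of cell movement and the gene of highest CPM in the list, stood at 0.27. Of 9 genes for chemokine processing and retention, 7 were measured. The heparan sulfate carrier gene Sdc1 was lower (4.10 CPM in the Ch25h-/- library and 12.3 CPM in the C57BL/6 library, -1.59) and the protease gene Mmp9 higher (1.18), while Sdc4 stood at -0.99.

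The cytokines and factors that switch on chemokine transcription included 3 lower genes among 8 measured. These were Il1b (162 CPM in the Ch25h-/- library and 427 CPM in the C57BL/6 library, -1.40), Il1a (-1.33) and Tnf (-1.11), the cytokines that act through NF-kB. Of the NF-kB subunit genes, Rel stood at -0.97, Rela at -0.21 and Nfkb1 at -0.20. Irf1 (-0.25), a factor of the interferon-gamma response, was not called. The part of these inducers in the lower ligand values was not tested.

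The myeloid cell markers differed between the libraries beside the lower ligands, in both directions. Of the 11 neutrophil markers 5 were higher and 0 lower, at a median log2 ratio of 0.93. Of the 6 Ly6C-high monocyte markers 2 were higher and 0 lower, at a median of 0.56. Of the 7 mature dendritic cell markers 6 were lower, and they summed to 675 CPM in the Ch25h-/- library and 2215 CPM in the C57BL/6 library, with none at 0. Of 8 conventional dendritic cell markers 5 were measured and 4 of these lower (Batf3, Zbtb46, Flt3 and Clec10a). All 8 summed to 424 CPM in the Ch25h-/- library and 514 CPM in the C57BL/6 library, with most of it from Itgax, which was not called (log2 ratio 0.30). Xcr1 was at 0 in the C57BL/6 library alone. Of the red pulp macrophage markers 4 of 9 were lower, and of the 5 marginal zone macrophage markers 3 (Marco, Siglec1 and Timd4). All 5 summed to 43.9 CPM in the Ch25h-/- library and 102 CPM in the C57BL/6 library, with Cd209b at 0 in both. The 10 markers of Ly6C-low monocytes, the type nearest to the gate, had a median log2 ratio of -0.32, and 1 (Fcgr4) was lower. They summed to 2946 CPM in the Ch25h-/- library and 2429 CPM in the C57BL/6 library. Most of this came from Itgal (1784 CPM in the Ch25h-/- library and 1341 CPM in the C57BL/6 library) and Spn (676 and 471 CPM). Of the 10 markers, 6 lay below 0 and 4 above. The part of these cell types in the lower values of Cxcl1, Cxcl2, Cxcl3, Ccl2, Ccl6, Ccl17, Cxcl16 and Cx3cl1 was not tested.

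**Figure D5:**
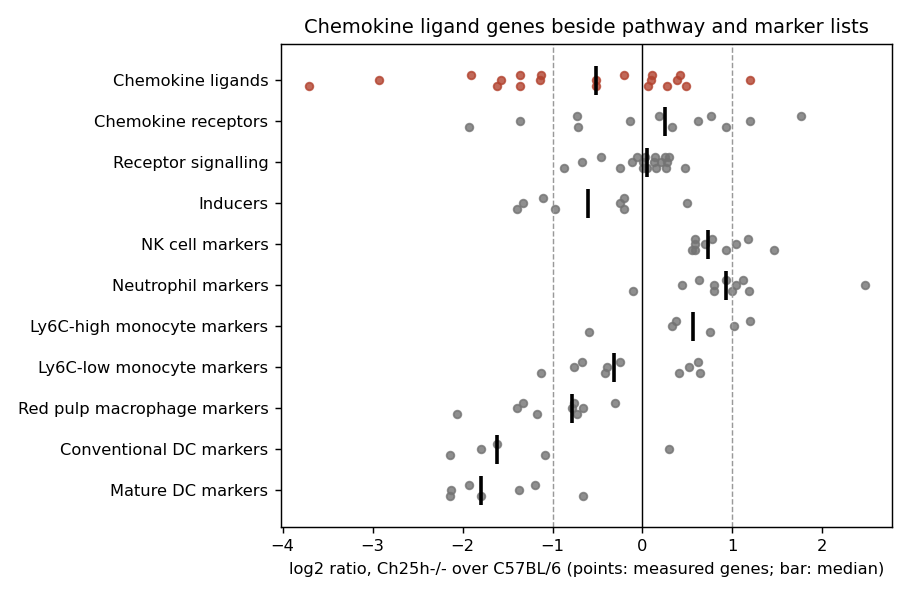
Log2 ratio, Ch25h-/- over C57BL/6, of the measured genes of each list (points) with the list median (black bar); dashed lines mark 2-fold. The ligands spread from -3.71 to 1.20 around -0.52, while medians ran from -1.80 for mature dendritic cell markers to 0.93 for neutrophil markers.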

How the data were processed

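The authors deposited 1 table of whole read counts per gene, with 1 column per library, and both columns were used. Genome builds GRCm38 and mm10 are named in the submitters' processing notes, as are the tools GSNAP, Subread 1.5.2, featureCounts, FastQC 0.11.9 and edgeR 3.26.8. Strand setting and treatment of reads matching several places are not given in the sources used here. Per the labels' protocols, TRIzol RNA went into a KAPA RNA HyperPrep library.

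CPM were computed from the deposited counts with TMM factors (0.991 for Ch25h-/-, 1.01 for C57BL/6) from edgeR 4.0.16 in R 4.3.3. Ratios carry exact Clopper-Pearson intervals and shares exact binomial ones, from scipy 1.17.1. A count of 0 was set to a floor of 3 counts. Intervals cover counting error only, since each genotype has 1 library. The reads carry no molecular identifiers, so copies of 1 molecule would count as separate reads and the intervals may be too narrow. The steps were tested on simulated counts with counting error only, in which genes well above the filter were changed by known folds. Changes in genes near the filter and variation between mice were not simulated.

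Positions, exon lengths (union of annotated exons), overlaps and shared stretches of 50 bases come from GENCODE M21 (GRCm38), which holds all 39 members, and promoters from RefSeq (GRCm38.p6), which lists 28 of them by symbol. All members are accounted for. Of the pathway lists, 2 genes are not reported here and are left out of the counts. Of the pathway lists, the text names the 3 measured genes with the widest log2 ratio and the one of highest CPM. Marker lists, for which the same rule was written, are given mainly as counts and sums. Other genes of the pathway and marker lists, such as receptors of the members, were named after their values were seen. Members and lists were chosen with earlier results of these data known. The alternatives were DESeq2 1.42.0 size factors, other scalings, filters, a prior count and other call rules.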

Additional observations from a re-analysis of the deposited data

How the results depend on the processing

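Against 9 measured ligand genes lower in the Ch25h-/- library, a filter at 5 CPM left 5 (Cxcl2, Cxcl3, Ccl2, Ccl6 and Cxcl16) of 13, since Cxcl1, Ccl17, Ccl24 and Cx3cl1 lie under it. An interval wholly beyond 2-fold left 6, without Ccl6, Ccl17 and Cx3cl1, and 0 higher, because the interval of Xcl1 reaches down to 0.96. No filter beyond 1 count gave 10 lower, with Ccl7 added. The other settings kept the same 9 lower genes. Scalings moved log2 ratios by at most 0.03, and all 100 recomputed values of single members stayed within their counting interval. The median of -0.52 ran from -0.54 to -0.50. No paired analysis was possible because each genotype has 1 library. Depth limits the members with few counts: an interval such as that of Ccl24 (-4.89 to -1.44) spans far more than those of Ccl3 to Ccl5.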
